A study of Mus musculus with 18 samples.

Results

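The miR-30 family was examined in Neuro2A, a mouse neuroblastoma cell line that the labels assign to strain A. Its members were the 5 mouse entries of the array named exactly mmu-miR-30a, mmu-miR-30b, mmu-miR-30c, mmu-miR-30d and mmu-miR-30e, without the star forms, out of 566 mouse miRNA entries in all. They were carried by 11 of 1890 mouse probes, and all 5 entered the tests, in which 226 miRNAs were compared. The cells were nucleofected with a fusion of green fluorescent protein (GFP) and the TATA-binding protein (TBP), a general transcription factor, whose glutamine tract had 16 (16Q-TBP) or 59 residues (59Q-TBP). An expanded glutamine tract in TBP is known from a spinocerebellar ataxia, and the study asked how the expanded form affects miRNAs. Total RNA was taken at 24, 36 or 60 h after transfection from 3 biological replicates of each construct, which gave 6 groups and 18 single-colour Agilent miRNA arrays. All 6 groups shared the cell line, the nucleofection and the GFP fusion, so every comparison was between cells that carried an introduced TBP, and cells without one were not analysed here. The RNA came from whole cultures, so a change per cell and a change in the share of cells that carry a construct cannot be told apart.

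A miRNA is a short RNA that guides Argonaute proteins to messenger RNAs, chiefly through its seed, the bases 2 to 8 from the 5′ end, and lowers the output of the messages it pairs with. The miR-30 members are made from several hairpins, share a seed and so share most of their predicted targets, among which the epithelial-to-mesenchymal regulator Snai1 and the autophagy gene Becn1 have been studied. The family is expressed in many differentiated tissues, brain included.

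The mature sequences show what sets members apart, and with it which probes may be hard to keep separate. They are given for the members with a mature sequence in the RefSeq set used (GRCm38.p6). That set held none for miR-30b and miR-30d, which are not shown. miR-384-5p, a miRNA outside the family that has the same seed, is added. The capitals mark the seed.
miR-30a: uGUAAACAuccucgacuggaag
miR-30e: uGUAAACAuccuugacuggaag
miR-30c: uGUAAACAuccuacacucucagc
miR-384-5p: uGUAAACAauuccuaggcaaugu
In GRCm38.p6 the miR-30a sequence lies at chr1:23272274-23272295 on the plus strand. The miR-30e sequence lies at chr4:120772660-120772681 on the minus strand, within the gene Nfyc. The miR-30c sequence occurs at chr1:23291714-23291736 on the plus strand, in Mir30c-2, and at chr4:120769584-120769606 on the minus strand, in Mir30c-1 within Nfyc. The miR-384-5p sequence lies at chrX:105344332-105344354 on the minus strand. With positions counted from 1 at the 5′ end and miR-30a given first, miR-30a and miR-30e differed by C13U alone and were identical at 21 of 22 bases. miR-30a and miR-30c shared their first 12 bases and 17 of 22, as did miR-30e and miR-30c. Counted in the same way, miR-384-5p shared the first 8 bases with each of these 3, and 12 bases in all with miR-30a, 11 with miR-30e and 11 with miR-30c. In the annotation Mir30a neighbours Mir30c-2, Mir30e neighbours Mir30c-1, and Mir30b neighbours Mir30d.

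Each member had 20 spots on an array, 100 in all, and 53 of the 1800 member spots over 18 arrays were left out as outliers. None was saturated. The processed signal, which is the scanner software's background-subtracted brightness, was averaged over the spots of a probe and divided by the 75th percentile of the array. A value of 0 on the log2 scale is that percentile, and the lowest value allowed was -4.11. Both probes of miR-30d stood well above background on all 18 arrays, with median processed signals of 58.8 and 57.8. miR-30e kept 2 of 3 probes, seen on 14 and 18 arrays. miR-30a kept both, seen on 12 and 16 arrays. miR-30b and miR-30c each kept 1 of 2 probes, seen on 11 and 14 arrays, so their values were the least certain. A probe was kept if all 3 arrays of some group detected it. The probe of miR-30b met this only in 16Q at 24 and 36 h, and that of miR-30c only in groups at 24 and 36 h. Lower values of these members in the other groups are therefore not free of the filter. The 2 kept probes of miR-30d correlated at r = 0.99 over 18 arrays, those of miR-30a at r = 0.90 and those of miR-30e at r = 0.89. Over 10 comparisons between groups the 2 probes had the same sign in 10 for miR-30a and in 9 each for miR-30d and miR-30e.

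The share of mouse probes detected above background ran from 18.3% to 35.0% over the arrays, and the 75th percentile from 106 to 331. Between 2 and 5 members were well above background. The arrays lay on 3 slides. Every 24 h array was on the first slide, together with the 36 h arrays of 16Q replicates 1 and 2. On the third were only the 60 h arrays of 59Q replicates 2 and 3, and the second carried the rest. On 4 arrays (16Q replicates 1 and 2 at 24 h, 59Q replicate 2 at 36 h, 59Q replicate 1 at 60 h) the median correlation with the other arrays was 0.759 to 0.801, against at least 0.834 on the other 14. Among 5 markers of neurons on the array, only miR-125b-5p was above background on all 18 arrays. miR-7a was so on 11, miR-137 on 3, miR-124 on 1 and miR-9 on none. Of 15 markers of other cell types, 12 were above background on no array, and the exceptions were miR-143 on 16, miR-145 on 10 and miR-206 on 8.

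**Figure D1:**
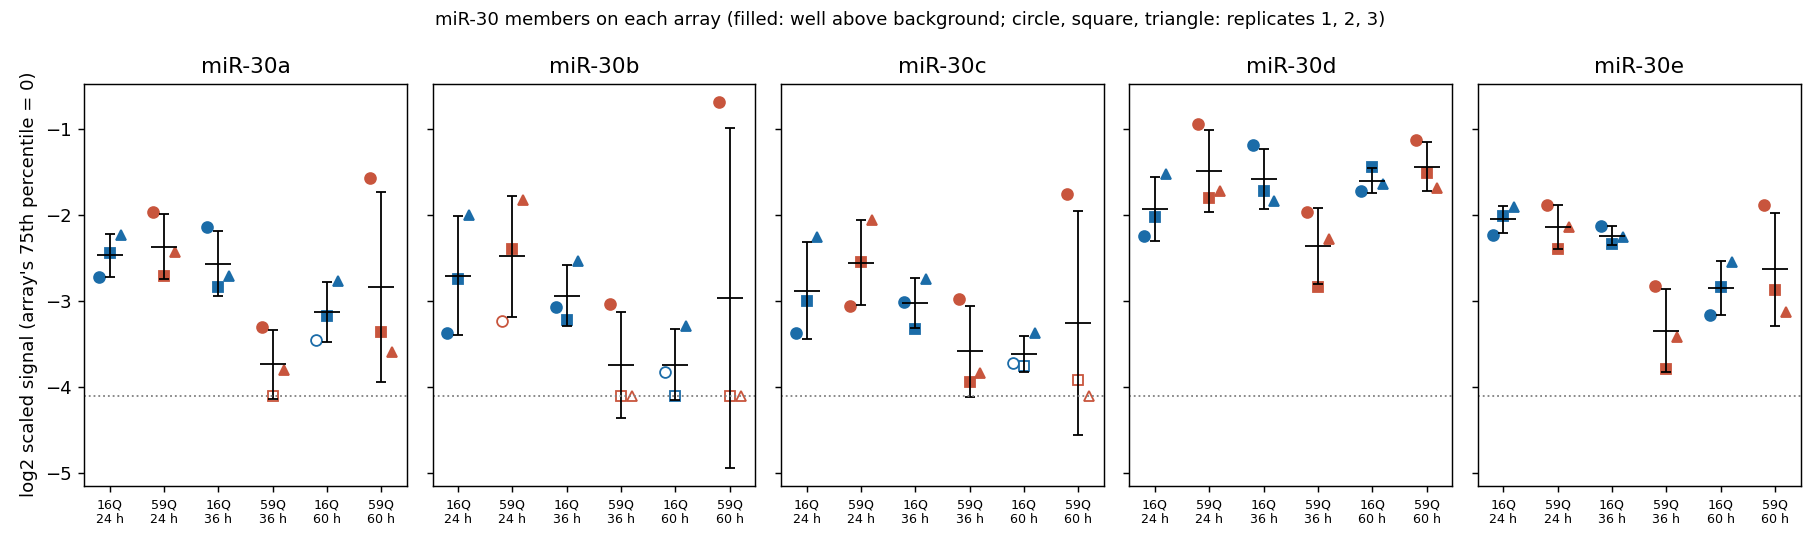
Log2 scaled signal of each member (1 panel each) on all 18 arrays by construct and time, blue for 16Q and red for 59Q, with the group mean ± SD in black. Filled points were well above background and the dotted line is the lowest value allowed, -4.11. Replicates 2 and 3 of 59Q at 36 h lie low in every panel, and replicate 1 lies within the range of 16Q at 36 h for miR-30b and miR-30c. At 60 h 1 of 3 59Q arrays (replicate 1) lies far above the other 2 for miR-30a, miR-30b and miR-30c.

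At 24 h the arrays of the 2 constructs overlapped for all 5 members, and none passed limma's test (adjusted p under 0.05 over the 226 miRNAs). For miR-30d, the member seen on every array, 16Q arrays gave -2.24, -2.03 and -1.53 and 59Q arrays -0.94, -1.81 and -1.72 (log2 scaled signal, replicates 1, 2 and 3). miR-30a gave -2.73, -2.45 and -2.23 in 16Q and -1.97, -2.71 and -2.43 in 59Q. miR-30e gave -2.23, -2.02 and -1.91 in 16Q and -1.89, -2.39 and -2.14 in 59Q. In each of these the constructs overlapped. miR-30b gave -3.38, -2.75 and -2.0 in 16Q and -3.23, -2.40 and -1.83 in 59Q, of which 2 of 3 59Q arrays were above background. miR-30c gave -3.38, -3.0 and -2.26 in 16Q and -3.06, -2.55 and -2.07 in 59Q. These also overlapped, and within both constructs replicate 3 was the highest for miR-30b and miR-30c. The log2 differences (59Q minus 16Q) ran from -0.09 (SE 0.32, n = 3 arrays a group) for miR-30e to 0.44 (SE 0.31) for miR-30d, and the limma adjusted p from 0.426 to 0.894. The median of the members, 0.22, lay beside a median of 0.25 over all 226 miRNAs, of which 1 (0.442%) passed. No member had an unadjusted p under 0.05, against 20.4% of all miRNAs. These values moved with single arrays. Without 16Q replicate 3 at 24 h the median of the members was 0.58 and 50 of 226 miRNAs passed, none of them a member, and without 16Q replicate 1 the median was -0.03. With no scaling between arrays and with the deposited log2 values all 5 members were below 0, with medians of -0.48 and -0.16.

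At 36 h all 5 members were lower in 59Q than in 16Q on average, except that miR-30c and miR-30d turned above 0 with no scaling between arrays and with the deposited log2 values, and none passed the test. miR-30e gave -2.13, -2.35 and -2.25 in 16Q and -2.83, -3.79 and -3.42 in 59Q. miR-30a gave -2.14, -2.84 and -2.72 in 16Q and -3.31, -4.11 and -3.81 in 59Q, where replicate 2 was at the lowest value allowed and not above background. miR-30d gave -1.19, -1.73 and -1.84 in 16Q and -1.97, -2.84 and -2.28 in 59Q. In these 3 members every 59Q array lay below every 16Q array. miR-30b gave -3.07, -3.22 and -2.54 in 16Q and -3.04, -4.11 and -4.11 in 59Q, with 1 of 3 59Q arrays above background. miR-30c gave -3.01, -3.32 and -2.75 in 16Q and -2.98, -3.94 and -3.84 in 59Q. For both of these, 59Q replicate 1 lay within the range of 16Q.

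The log2 difference at 36 h was -1.11 (SE 0.32, limma adjusted p = 0.201) for miR-30e, -1.17 (SE 0.43, adjusted p = 0.247) for miR-30a and -0.78 (SE 0.31, adjusted p = 0.256) for miR-30d. It was -0.81 (SE 0.70, limma adjusted p = 0.637) for miR-30b and -0.56 (SE 0.50, adjusted p = 0.646) for miR-30c. The median of the members was -0.81, beside -0.19 over all miRNAs, of which 63.7% were lower in 59Q. The count of members that passed was 0 of 5, beside 0.442% of all miRNAs. At an unadjusted p under 0.05 it was 3, beside 15.5%, and the 3 members whose arrays did not overlap stand beside 22.6% of all miRNAs with every 59Q array lower. Without 59Q replicate 1 at 60 h, an array outside this comparison that adds to the estimated spread, miR-30a (limma adjusted p = 0.030) and miR-30e (adjusted p = 0.025) passed with the same differences, as did 10 of all 226 miRNAs (4.42%). Over all alternatives their adjusted p ranged up to 1 and 0.869. Without the 4 arrays least like the others the differences were -0.99 for miR-30a, -0.88 for miR-30e and -0.54 for miR-30d, and none passed. Within the second slide, which held 1 array of 16Q and 3 of 59Q, they were -1.02, -1.09 and -0.52. With no scaling between arrays the difference of miR-30d was 0.0058 and that of miR-30c 0.22, while the median of all 226 miRNAs moved to 0.47. Relative to the median of all miRNAs, all 5 members were lower under each of the 4 other scalings tried and as reported. A factor applied to a whole array largely cancels in this measure, so the scalings are not separate checks of it.

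At 60 h the 59Q replicates disagreed with each other, and the constructs did not separate for any member. miR-30b gave -3.83, -4.11 and -3.29 in 16Q and -0.69, -4.11 and -4.11 in 59Q. miR-30c gave -3.73, -3.76 and -3.38 in 16Q and -1.76, -3.92 and -4.11 in 59Q. miR-30a gave -3.46, -3.17 and -2.77 in 16Q and -1.57, -3.36 and -3.60 in 59Q. In all 3, 59Q replicate 1 was the highest of the 18 arrays, while replicates 2 and 3 were near or below the 16Q arrays. miR-30b and miR-30c were each above background on 1 array of 3 in both constructs, and miR-30a on 2 of 3 in 16Q. miR-30e gave -3.17, -2.84 and -2.55 in 16Q and -1.89, -2.88 and -3.13 in 59Q. miR-30d gave -1.73, -1.44 and -1.64 in 16Q and -1.13, -1.51 and -1.69 in 59Q, the narrowest spread of the 5.

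The log2 differences at 60 h ran from 0.16 (SE 0.31) for miR-30d to 0.78 (SE 0.70) for miR-30b, each with limma adjusted p = 0.947. None of the 5 members passed or had an unadjusted p under 0.05, and 1 of all 226 miRNAs (0.442%) did either. The median of the members was 0.29, beside 0.06 over all miRNAs. Without 59Q replicate 1 it was -0.34, and the differences turned to -0.34 for miR-30a, -0.36 for miR-30b, -0.39 for miR-30c and -0.15 for miR-30e. That replicate was the only 59Q array at 60 h on the second slide, beside all 3 of 16Q. Within that slide the differences were 1.56 for miR-30a, 3.06 for miR-30b, 1.87 for miR-30c, 0.47 for miR-30d and 0.96 for miR-30e, and with slide as a block 3 members passed (limma adjusted p = 0.021, 0.0034 and 0.020 for miR-30a, miR-30b and miR-30c). In that fit 49 of all 226 miRNAs (21.7%) passed. These values rest on that 1 array, and under other alternatives the limma adjusted p of these members reached 1.

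Averaged over the 3 times, the difference was -0.33 (SE 0.19) for miR-30e, -0.26 (SE 0.25) for miR-30a, -0.06 (SE 0.18) for miR-30d, 0.04 (SE 0.29) for miR-30c and 0.06 (SE 0.40) for miR-30b, each with limma adjusted p = 0.999. None of the 5 passed or had an unadjusted p under 0.05, beside 0.442% and 0.885% of all miRNAs. Whether the difference between constructs depended on time was tested in the same fit. Relative to 24 h the difference was lower at 36 h by between 0.88 and 1.27 on the log2 scale in all 5 members, and the limma adjusted p was 0.215 for miR-30a, miR-30d and miR-30e, 0.412 for miR-30b and 0.487 for miR-30c. No member and none of the 226 miRNAs (0%) passed. Without 16Q replicate 3 at 24 h 30 of the 226 passed, none of them a member, and with slide as a block 4 members did, beside 55 of all (24.3%). Before adjustment miR-30d and miR-30e were under 0.05 in limma's F test, which makes 2 of 5 members beside 22.1% of all miRNAs.

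**Figure D2:**
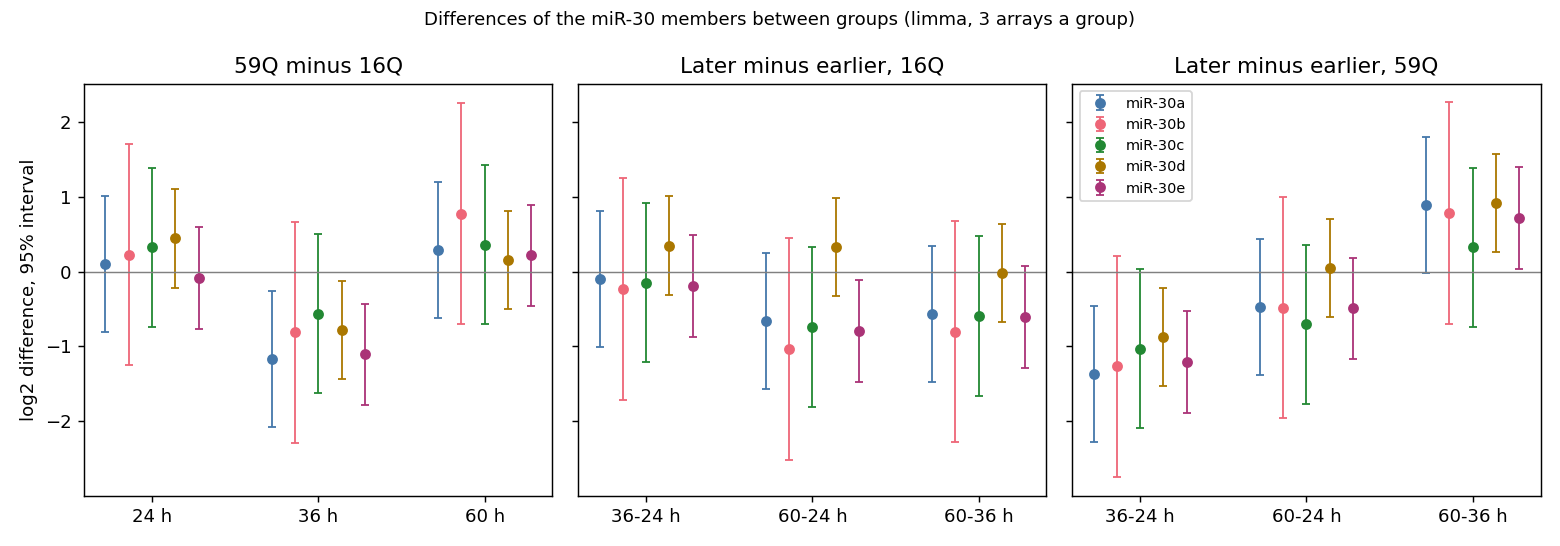
Log2 differences of the 5 members with 95% intervals from limma (n = 3 arrays a group), for 59Q minus 16Q at each time and for later minus earlier times within each construct. The intervals of miR-30a, miR-30d and miR-30e lie below 0 for 59Q minus 16Q at 36 h and for 59Q at 36 h minus 24 h, and after adjustment over 226 miRNAs none of the differences passed. With no scaling between arrays that of miR-30d at 36 h is 0.0058.

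In 16Q cells the means of miR-30a, miR-30b, miR-30c and miR-30e were lower at 60 h than at 24 h and that of miR-30d was higher, and none of the 5 passed the test. The group means ± SD (log2 scaled signal, n = 3) of miR-30e were -2.06 ± 0.16 at 24 h, -2.24 ± 0.11 at 36 h and -2.85 ± 0.31 at 60 h. Those of miR-30d were -1.93 ± 0.37, -1.58 ± 0.35 and -1.60 ± 0.14. The change from 24 to 60 h was -0.80 (SE 0.32, limma adjusted p = 0.0645) for miR-30e, -0.66 (SE 0.43) for miR-30a, -0.74 (SE 0.50) for miR-30c, -1.03 (SE 0.70) for miR-30b and 0.33 (SE 0.31) for miR-30d. Of all 226 miRNAs 80 (35.4%) passed, and 46.9% had an unadjusted p under 0.05, as did 1 member. The count of 80 depended on the processing and on single arrays. It was 3 with normexp, 5 with the deposited values and 0 with slide as a block. It was 13 and 6 without 16Q replicates 1 and 2 at 24 h, 19 and 7 without 16Q replicates 1 and 2 at 60 h, and 66 to 99 without any other array. Leaving out the 4 arrays least like the others leaves 1 array of 16Q at 24 h. There the median of the members was -0.94, beside -0.15 over all miRNAs. Every 60 h array lay below every 24 h array for miR-30a and miR-30e, beside 20.4% of all miRNAs. The median of the members was -0.74, beside 0.16 over all miRNAs. All 24 h arrays were on the first slide and all 16Q arrays at 60 h on the second, so the fit with slide as a block links these times through the 36 h arrays of 16Q, which lay on both. There the change was -0.78 for miR-30e, -0.44 for miR-30a, -1.16 for miR-30c, -1.64 for miR-30b and 0.71 for miR-30d, and none passed. miR-30e passed without 59Q replicate 1 at 60 h (limma adjusted p = 0.022), beside 41.2% of all miRNAs, and over all alternatives its adjusted p ran from 0.022 to 0.882. Of the 5 members 1 passed with quantile normalization, beside 36.7% of all miRNAs, 1 with no scaling, beside 18.1%, and 2 with only the arrays compared, beside 43.4%. The value of miR-30d turned to -0.59 with no scaling, where the median of all miRNAs was -0.70, and to -0.19 with the deposited values, where it was -0.13.

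From 24 to 36 h the 16Q members moved by -0.23 (SE 0.70) for miR-30b to 0.35 (SE 0.31) for miR-30d, with no member passing, as with all miRNAs (0%, and 8 of 226 without 16Q replicate 3 at 24 h). No member had an unadjusted p under 0.05, beside 11.5% of all miRNAs. Within the first slide, 3 arrays against 2, miR-30d differed by 0.47 and miR-30b by -0.43. From 36 to 60 h the differences were -0.61 (SE 0.32) for miR-30e, -0.80 (SE 0.70) for miR-30b, -0.59 (SE 0.50) for miR-30c, -0.57 (SE 0.43) for miR-30a and -0.02 (SE 0.31) for miR-30d. None passed, beside 0.442% of all miRNAs (11 of 226 without 59Q replicate 1 at 60 h), and none was under an unadjusted p of 0.05, beside 12.4%. miR-30b, miR-30c and miR-30e did not overlap between these times, beside 24.8% of all miRNAs that were lower on every array. miR-30b and miR-30c passed the filter through groups at 24 and 36 h alone, so their lower values at 60 h are no separate support. Within the second slide, 1 array against 3, the differences were -0.60 for miR-30e, -1.21 for miR-30b and 0.23 for miR-30d.

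In 59Q cells the means of all 5 members were lower at 36 h than at 24 h, and again none passed. The log2 difference was -1.37 (SE 0.43, limma adjusted p = 0.0905) for miR-30a, -1.21 (SE 0.32, adjusted p = 0.0905) for miR-30e and -0.87 (SE 0.31, adjusted p = 0.127) for miR-30d. It was -1.27 (SE 0.70, limma adjusted p = 0.217) for miR-30b and -1.03 (SE 0.50, adjusted p = 0.179) for miR-30c. None of the members and none of the 226 miRNAs (0%) passed, counts that rose without either of 2 single arrays. Unadjusted, 3 members were under 0.05, beside 28.3% of all miRNAs. The arrays of miR-30a, miR-30d and miR-30e did not overlap, beside 24.8% of all miRNAs lower on every array. The median of the members was -1.21, beside -0.26 over all miRNAs. The 24 h arrays were on the first slide and the 36 h arrays of 59Q on the second. With slide as a block, estimated for these groups through the 36 h arrays of 16Q on both slides, the median of the members was -1.19, all 5 were below 0 and no miRNA passed. miR-30a and miR-30e passed without 59Q replicate 1 at 60 h (limma adjusted p = 0.011 for both), beside 32 of all 226 miRNAs (14.2%). They also passed without the 4 arrays least like the others (limma adjusted p = 0.047 for both), beside 13 of all (5.75%). Without 59Q replicate 1 at 36 h, 3 members passed, beside 63 of all (27.9%). Over all alternatives the limma adjusted p ran from 0.011 to 0.725 for miR-30a and from 0.011 to 0.523 for miR-30e. All 5 members stayed below 0 under every alternative run.

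From 36 to 60 h in 59Q cells the members were higher at 60 h, by 0.92 (SE 0.31, limma adjusted p = 0.254) for miR-30d, 0.90 (SE 0.43, adjusted p = 0.320) for miR-30a and 0.71 (SE 0.32, adjusted p = 0.320) for miR-30e. The differences of miR-30b and miR-30c were 0.78 (SE 0.70) and 0.33 (SE 0.50), and turned to -0.35 and -0.43 without 59Q replicate 1 at 60 h. With no scaling that of miR-30c was -0.0136. miR-30d was the member whose arrays did not overlap, beside 6.19% of all miRNAs higher on every array. No member passed, beside 0.885% of all miRNAs, and 2 were under an unadjusted p of 0.05, beside 11.9%. With slide as a block, which sets 59Q replicate 1 at 60 h alone against the 3 arrays at 36 h, all 5 passed with differences of 1.23 to 3.06, beside 59 of all 226 miRNAs (26.1%), of which 49 were higher at 60 h. From 24 to 60 h the differences ran from -0.70 (SE 0.50) for miR-30c to 0.05 (SE 0.31) for miR-30d. None passed, beside 1.33% of all miRNAs, and none was under an unadjusted p of 0.05, beside 4.87%. Without 59Q replicate 1 at 60 h, miR-30a (-1.11, limma adjusted p = 0.045), miR-30b (-1.62, adjusted p = 0.045) and miR-30c (-1.46, adjusted p = 0.028) passed as lower at 60 h, and the value of miR-30d was -0.11. Of all 226 miRNAs 18 (7.96%) passed there, 13 of them as lower. The 59Q arrays left at 60 h, replicates 2 and 3, were on the third slide and all 24 h arrays on the first. Time and slide cannot be told apart in this fit. On both of those 60 h arrays miR-30b was at the lowest value allowed, and miR-30b and miR-30c were not above background. Without the 4 arrays least like the others 4 members passed, beside 43 of all (19%), again with 24 h on the first slide and 60 h on the third. Under other alternatives the limma adjusted p of those 3 reached 1.

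Ordered by level, the 6 groups came out differently for miR-30d than for the others. For miR-30a, miR-30b and miR-30c the 24 h groups were the highest, 59Q before 16Q, followed by 16Q at 36 h and 59Q at 60 h. The lowest was 59Q at 36 h for miR-30a (-3.74 ± 0.40) and miR-30b (-3.75 ± 0.61) and 16Q at 60 h for miR-30c (-3.62 ± 0.21). miR-30e ran in the order of miR-30a except that 16Q at 24 h came first. miR-30d was highest in 59Q at 60 h (-1.44 ± 0.28) and lowest in 59Q at 36 h (-2.36 ± 0.44). In each order, neighbouring groups differed by less than the SD of at least 1 of the 2, with the exception of 16Q at 60 h and 59Q at 36 h for miR-30a (-3.13 ± 0.35 and -3.74 ± 0.40) and miR-30e (-2.85 ± 0.31 and -3.35 ± 0.49).

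The members varied together over the 18 arrays to very different degrees. miR-30b and miR-30c had the highest correlation (r = 0.98), followed by miR-30a and miR-30e (r = 0.96), whose mature sequences differ at 1 base. miR-30d stood apart, with r = 0.70 with miR-30a, 0.62 with miR-30e, 0.38 with miR-30c and 0.36 with miR-30b. The pairs whose genes are neighbours did not have the highest values, with r = 0.81 for miR-30a and miR-30c, 0.78 for miR-30c and miR-30e and 0.36 for miR-30b and miR-30d. After the group means were removed the same figures were 0.99 for miR-30b and miR-30c, 0.95 for miR-30a and miR-30e and 0.29 for miR-30b and miR-30d. These are descriptions over 18 arrays that share the scaling and, for miR-30b on 5 arrays, the lowest value allowed, and cross-hybridisation between probes of near-identical members was not tested.

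Set against the other members on the same array, miR-30d lay higher at 60 h than at 24 h on every array of 16Q. The scaling between arrays cancels in this difference except where a kept probe of a member is at the lowest value allowed. The size of the difference at 1 time has no meaning of its own since the probes differ. From 24 to 60 h in 16Q miR-30d itself changed by 0.33, beside a median of 0.16 over all miRNAs. The other 4 changed by -0.66 to -1.03. The measure was not computed for miRNAs outside the family, so whether such a rise is particular to miR-30d was not tested. miR-30d minus the mean of the other 4 was 0.68, 0.53 and 0.58 at 24 h, 1.40, 1.21 and 0.73 at 36 h and 1.82, 2.03 and 1.36 at 60 h on the log2 scale. The group means ± SD were 0.60 ± 0.08, 1.11 ± 0.34 and 1.74 ± 0.34 (n = 3). The arrays of 24 h lay below all those of 36 h and of 60 h. Within the first slide the 36 h arrays of 16Q (1.40 and 1.21) lay above the 24 h arrays of 16Q. Within the second, the 36 h array of 16Q (0.73) lay below the 60 h arrays of 16Q. The 75th percentile used for scaling was 311, 331 and 216 on the 16Q arrays at 24 h. It was 132, 149 and 195 at 36 h and 118, 117 and 236 at 60 h. On 59Q replicate 1 at 24 h, also on the first slide, it was 106 and the miR-30d difference was 1.59. Time and the brightness of the arrays were not separated, and the part of brightness in the 16Q shift was not tested. Against miR-30a and miR-30e alone, which leaves out the 2 members measured by 1 probe each, the 16Q means were 0.33 ± 0.19, 0.82 ± 0.15 and 1.39 ± 0.32. With no lowest value set, the 60 h mean was 1.75. With normexp background correction the means were smaller, 0.19, 0.40 and 0.52, and with the deposited log2 values they were 0.37, 0.56 and 0.67.

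In 59Q cells the same difference was 1.59, 0.71 and 0.40 at 24 h, 1.07, 1.15 and 1.51 at 36 h and 0.34, 2.05 and 2.05 at 60 h. The means were 0.90 ± 0.62, 1.24 ± 0.24 and 1.48 ± 0.99 (n = 3), with overlapping arrays at all times. With no lowest value set, the means at 36 and 60 h were 1.49 and 1.53. Replicates 2 and 3 at 60 h were the 2 highest values of the 18 arrays and replicate 1 the lowest. No test was made of this measure, which was set up with the members' values known.

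**Figure D3:**
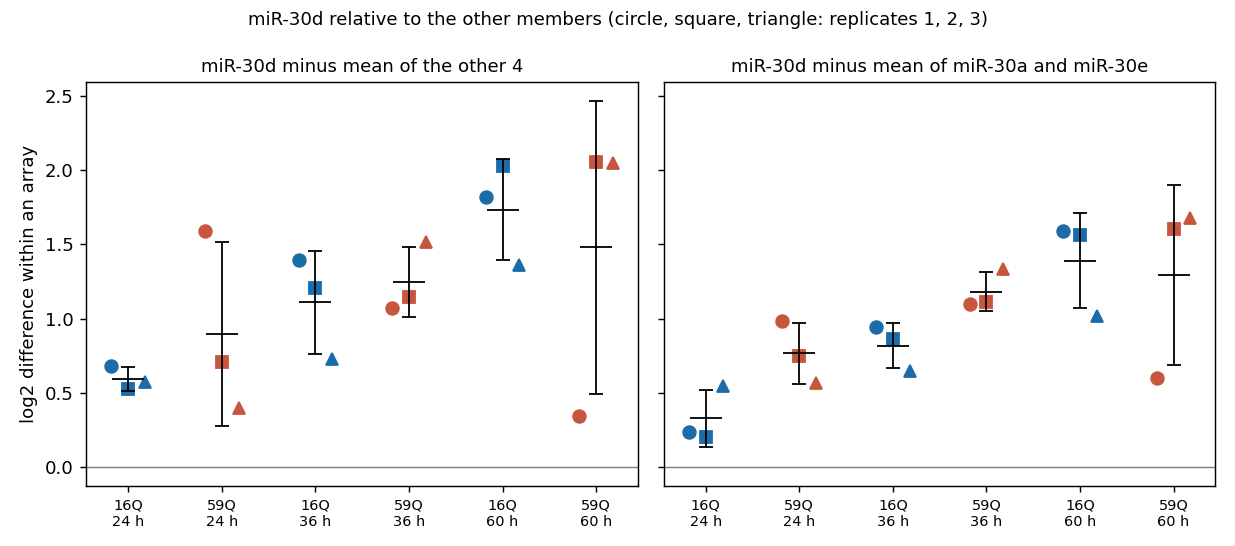
Log2 difference of miR-30d from the mean of the other 4 members (left) and from the mean of miR-30a and miR-30e (right) on each array, blue for 16Q and red for 59Q, with the group mean ± SD in black. In 16Q the left-hand means go from 0.60 at 24 h to 1.74 at 60 h, and 59Q replicate 1 at 60 h (0.34) lies apart from replicates 2 and 3 (2.05 each).

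The passenger strands and miR-384-5p were largely undetected. miR-30a*, miR-30b*, miR-30e* and miR-384-5p were above background on no array, and miR-30d* had no probe. miR-30c-1* kept 1 of 4 probes, seen on 12 arrays, and miR-30c-2* kept 1 of 2, seen on 14 arrays. miR-30c-2* rose in 16Q cells from -3.96 ± 0.26 at 24 h to -2.83 ± 0.33 at 60 h (log2 scaled signal, n = 3), a difference of 1.13 (SE 0.41, limma adjusted p = 0.041), with 2 of 3 arrays above background at each time, no overlap between the times and 2 of the 24 h arrays at the lowest value allowed. Of all 226 miRNAs 80 (35.4%) passed in this comparison, 57 of them as higher at 60 h. The call of miR-30c-2* was lost in 15 of 31 alternatives, with normexp (0.17), the deposited log2 values (0.42), no scaling (0.49) and slide as a block (2.03) among them. miR-30c-1* went from -3.95 ± 0.27 to -3.06 ± 0.36 in the same comparison (difference 0.89, SE 0.36, limma adjusted p = 0.0672). It was above background on 3 of 3 arrays at 24 h, 2 of them at the lowest value allowed, and on 2 of 3 at 60 h. Its processed signals before scaling were 25.1, 14.8 and 11.9 at 24 h and 15.3, 17.1 and 21.4 at 60 h. The guide strand from the same hairpins, miR-30c, had a difference of -0.74 (SE 0.50) between these times, and the difference between strands was not tested. Over the 18 arrays miR-30c-1* correlated with the mean of the 5 members at r = -0.71 and miR-30c-2* at r = -0.38. In no comparison between 59Q and 16Q did miR-30c-1* or miR-30c-2* pass.

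Beside 2 other seed families the values at 36 h were as follows. The 3 members of the miR-29 family had differences of -1.10 to -1.22 between 59Q and 16Q, the 8 tested of 9 members of the let-7 family -0.04 to -1.33 with a median of -0.30, and no member of either passed. In 16Q cells from 24 to 60 h the medians were -0.02 for miR-29 and 0.13 for let-7, beside -0.74 for miR-30, and none of their members passed. Differences between the families were not tested.

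The arrays on which the family was high were those on which a set of other miRNAs was high. Among 221 other entries, the closest to the mean of the 5 members over 18 arrays were miR-497 (r = 0.98), which shares the miR-15 and miR-16 seed, miR-21 (r = 0.96), known from growth and tumour settings, miR-125b-5p (r = 0.96), known from neuronal cells, and miR-106a (r = 0.95) and miR-17 (r = 0.94), which belong to the proliferation-linked miR-17 seed family. With group means removed, r was 0.99, 0.96, 0.93, 0.94 and 0.92 in the same order. In all, 41 of the 221 had r above 0.8, and the median was 0.06. For single members the closest entry was miR-497 for miR-30a (r = 0.96) and miR-30e (r = 0.94), miR-743a for miR-30b (r = 0.97), miR-125a-5p for miR-30c (r = 0.95) and miR-470 for miR-30d (r = 0.96).

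A principal component analysis of the 221 other miRNAs gave a first component with 48.5% of the variance and a second with 30.6%. The family mean followed the second (r = 0.96, Spearman's rho = 0.94, and r = 0.92 without the 2 arrays farthest from its median) and not the first (r = -0.0050). Within groups r with the second was 0.95, so replicates of 1 group differed along it as well. The extremes were 59Q replicate 1 at 60 h (family mean -1.41) and 59Q replicate 2 at 36 h (-3.76), both among the 4 arrays least like the others. The family mean had r = -0.09 with the log2 75th percentile used for scaling and r = 0.05 with the percent of probes above background. These relations are given as descriptions, with no test, and the part of array quality in the members' differences was not tested.

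**Figure D4:**
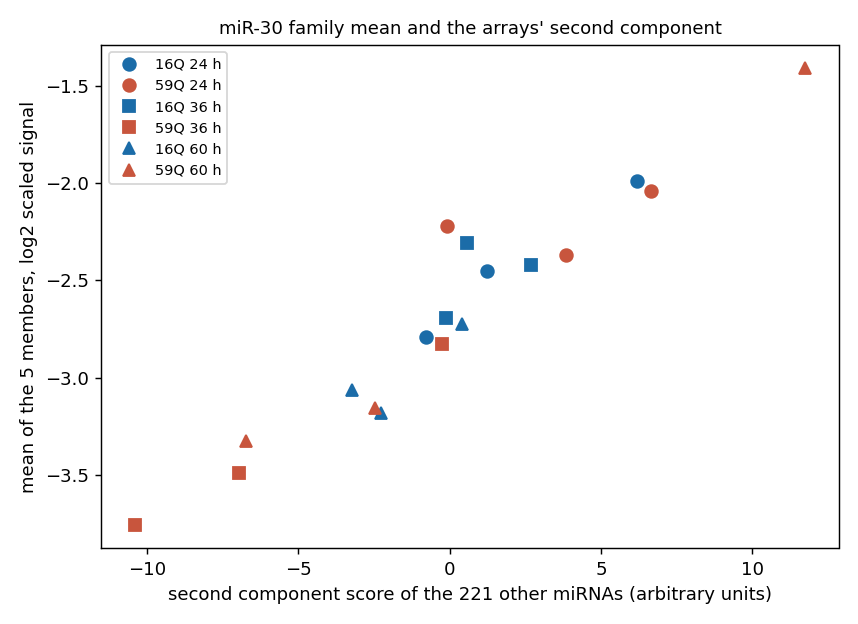
Mean of the 5 members (log2 scaled signal, vertical axis) against the score of the second component of the 221 other miRNAs (horizontal axis, arbitrary units) for 18 arrays, blue for 16Q and red for 59Q, with the shape giving the time. The points follow a line from 59Q replicate 2 at 36 h (-3.76) to 59Q replicate 1 at 60 h (-1.41).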

How the data were processed

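Total RNA of 18 Neuro2A cultures was hybridised to single-colour Agilent mouse miRNA arrays. Intensity is the processed signal that the authors' scanner software, Feature Extraction 9.5.1.1, wrote after background subtraction, per the file headers. The deposited series table holds unscaled log2 values, which matched log2 of the net signal of the same spots, and was used as an alternative.

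Unflagged spots were averaged per probe. A probe counted as well above background where at least 50% of its spots were so flagged. Values were divided by the 75th percentile over the 290 probes above background on all 18 arrays, floored at a log2 value of -4.11 (each array's dimmest detected probe, median of the arrays) and log2-transformed. A miRNA was the mean of those of its probes that all 3 arrays of some group detected (557 probes, 226 miRNAs). limma 3.58.1 (R 4.3.3) fitted the 6 group means over 18 arrays with 12 residual degrees of freedom, and p was adjusted by Benjamini-Hochberg over 226 miRNAs at 0.05. The number of arrays limits the precision, and p-values measure the spread between samples that the labels call biological replicates. The steps were tested on simulated data. Arrays were checked for duplicates (highest r within a group 0.985, between groups 0.989).

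All 5 members were named in every comparison, with the other strands, miR-384-5p, the 5 entries closest to the members' mean and each member's closest entry. The members and lists were chosen with earlier results of these data known. Alternatives were normexp, quantile or no scaling, the percentile over all probes, the deposited table, the brightest probe, 2 other filters on dim probes, a floor raised 4 times, eBayes with trend and robust settings, only the arrays compared, replicate number or slide as a block, the 4 arrays least like the others left out, and each array left out. Mature sequences came from RefSeq (GRCm38.p6). The array design names another build.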

Additional observations from a re-analysis of the deposited data

How the results depend on the processing

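No member passed limma's test in any of 11 comparisons as reported, and under most alternatives the count stayed at 0. It was otherwise, with the cause not tested, as follows. Beside each count stands the share of all 226 miRNAs that passed. With slide as a block 3 members passed for 59Q against 16Q at 60 h (21.7% of all), 5 for 59Q at 60 h against 36 h (26.1%) and 4 for the dependence on time (24.3%), values that rest on 59Q replicate 1 at 60 h. For 16Q at 60 h against 24 h, 1 passed with quantile normalization (36.7% of all), 1 with no scaling (18.1%) and 2 with only the arrays compared (43.4%). Without the 4 arrays least like the others, 2 passed for 59Q at 36 h (5.75% of all) and 4 for 59Q at 60 h (19%), each against 24 h. With each array left out in turn the count ranged from 0 to 2 for 59Q against 16Q at 36 h, 0 to 1 for 16Q at 60 h against 24 h, 0 to 3 for 59Q at 36 h against 24 h and 0 to 3 for 59Q at 60 h against 24 h. All but 1 of these 5 gains came without 59Q replicate 1 at 60 h, and that one, 3 members for 59Q at 36 h against 24 h, came without 59Q replicate 1 at 36 h. In the other comparisons it was 0 throughout.

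Of 50 differences of members, 32 changed sign under at least 1 of up to 32 alternatives and 18 did not. Among the comparisons in which a member had an unadjusted p under 0.05, the sign turned as follows. For 59Q against 16Q at 36 h, with no scaling, it was 0.22 for miR-30c and 0.0058 for miR-30d, and with the deposited values they were 0.15 and 0.0462. For 16Q at 60 h against 24 h miR-30d was -0.59 with no scaling and -0.19 with the deposited values. It was -0.0763 without the 4 arrays, which leaves 1 array of 16Q at 24 h. For 59Q at 60 h against 36 h miR-30c was -0.0136 with no scaling, and without the 4 arrays miR-30b was -0.53 and miR-30c -0.60. With arrays left out in turn, in that comparison miR-30b ranged from -0.35 to 1.35 and miR-30c from -0.43 to 0.75.

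With group means removed, 15 of 45 pairs of samples with the same replicate number had a correlation over 0.1, and the range was -0.81 to 0.84. Pairs with different numbers were not compared, so whether the numbers pair the samples was not tested. With the replicate number as a block the count of members was 0 in all 11 comparisons. The alternatives for miR-30d within the family and for miR-30c-2* were chosen after the data were seen. With no scaling between arrays the median of all 226 miRNAs moved by -0.86 to 0.66 on the log2 scale, depending on the comparison. Members near background (miR-30b above it on 11 arrays, miR-30c on 14) are the least certain.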
